A study of Mus musculus with 50 samples.

Results

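Transcript levels of 45 cell cycle and mitosis genes were compared in embryonic mouse brains carrying mutations of Gtf2i or of Gtf2ird1. The genes were chosen by symbol and, like all other gene lists below, with earlier results of these data known. All 45 were found among the 11708 genes of the deposited table of read counts. They were divided by their known time of use into 15 S phase genes, 25 genes of G2 and mitosis (G2/M) and 5 G1 cyclins. RNA came from whole brains of the strain FVB/ANTJ at embryonic day E13.5, in 18 libraries of 6 groups of 3. One set of 9 libraries, called the gtf2i cross here, held embryos labelled wt, gtf2i and gtf2i/gtf2i, and the other, the ird1 cross, held embryos labelled wt, ird1 and ird1/ird1. The labels name no treatment. A single gtf2i or ird1 was read as 1 mutant allele. The labels do not describe the mutant alleles or the sex of the embryos, and p-values measure only the spread between these libraries. The targeted genes encode related transcription factors, and their human counterparts lie in the segment deleted in Williams syndrome.

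Cells divide in an ordered series of phases. D-type and E-type cyclins drive G1 and the entry into S phase, in part by releasing the E2F transcription factors, which switch on genes for DNA replication. The MCM helicase is loaded onto origins by Cdc6 and Cdt1 before S phase, and in S phase DNA is copied. In G2 and mitosis, Cdk1 with its A-type and B-type cyclins, the Aurora and Polo kinases and many spindle and kinetochore proteins condense and separate the chromosomes. In the brain at this stage, dividing radial glia and intermediate progenitors express these genes, and neurons, which no longer divide, express most of them little.

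Total counts ranged from 3239117 (wt replicate 2 of the ird1 cross) to 7371483 per library. Levels are given as CPM, read counts relative to library size after scaling by the trimmed mean of M values. Gtf2i checked the labels of the gtf2i cross, at 598, 658 and 615 CPM in wt, 375, 363 and 365 CPM in gtf2i and 83.3, 82.2 and 81.8 CPM in gtf2i/gtf2i. The fall in gtf2i/gtf2i was -2.93 on the log2 scale (edgeR adjusted p = 2.79e-11). Gtf2ird1 was not lower but higher in the libraries labelled ird1/ird1, at 219, 223 and 227 CPM against 90.5, 114 and 90.4 CPM in wt, a log2 fold change of 1.18 (edgeR adjusted p = 3.92e-05). It was higher in gtf2i/gtf2i as well, at 286, 270.0 and 245 CPM against 126, 143 and 138 CPM in gtf2i and 97.9, 84.1 and 95.1 CPM in wt of that cross (1.52 on the log2 scale, edgeR adjusted p = 5.61e-07), so the higher level was not particular to the ird1 cross. RNA level therefore does not show a loss of Gtf2ird1, and directions in the ird1 cross refer to the libraries as labelled. Markers of radial glia (17 of 17 listed genes), neurons (20 of 20) and intermediate progenitors (11 of 11) were all in the table. Other lists were less complete, with 8 of 14 red blood cell, 11 of 12 endothelium, 4 of 7 microglia and 4 of 6 choroid plexus markers. Genes were tested by edgeR (quasi-likelihood), p-values were adjusted by Benjamini-Hochberg over all 11708 genes, and called means an adjusted p below 0.05. In whole-brain RNA, a change in the number of dividing cells and a change in RNA per dividing cell cannot be told apart.

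All 45 genes were expressed in every library, with between 16 and 10222 counts for any of them in any library. Every gene in the deposited table had at least 10 counts in every library, so expression follows from being in the table. Per kilobase of the listed transcript, averaged over the 18 libraries, Ccnd2 had the highest level, 193 CPM per kb, above 98.5% of all genes in the table. Ccnd2 encodes cyclin D2, a G1 cyclin of neural progenitors. Next came Top2a (topoisomerase II alpha, which untangles chromosomes) at 67.1 CPM per kb, Ccnd1 (cyclin D1) at 66.99 CPM per kb and Cdc20, an activator of the anaphase-promoting complex, at 61.4 CPM per kb. The lowest levels were those of Ccne2 (cyclin E2) at 4.08 CPM per kb and the long kinetochore motor gene Cenpe at 4.81 CPM per kb. The order among genes depends on 1 listed transcript length per gene. The 3 D-type cyclins therefore differed widely per kilobase, with Ccnd3 at 17.5 CPM per kb, and of the E-type cyclins Ccne1, at 10.02 CPM per kb, was near the middle of the table (above 45.3% of all genes) and Ccne2 low (above 18.1%).

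What the classes share in sequence was described from RefSeq promoters of the build GRCm38.p6, in windows from 250 bases before to 50 bases after the annotated start. The deposited counts were made on mm10, the same build. Of the 45 genes, 36 had at least 1 promoter in the table, and Aurkb, Ccna2, Ccnd1, Ccnd2, Ccne2, Gmnn, Mcm4, Smc4 and Tpx2 had none. The CHR element, searched as TTTGAA or TTCGAA on both strands, is known from promoters of G2/M genes bound by the DREAM and MuvB complexes. It was in 18 of 22 G2/M promoters (81.8%), 2 of 14 S phase promoters (14.3%) and 13.2% of the 11763 promoters of all genes in the table. CCAAT, the letters bound by NF-Y, was in 86.4% of G2/M promoters, 64.3% of S phase promoters and 37.7% of all promoters. E2F-type letters, TTCCCGC or TTGGCGC on both strands, were in 9 of 14 S phase promoters (64.3%), 3 of 22 G2/M promoters (13.6%) and 12.4% of all. A TTGGCGC that follows an A also holds ATTGG, the reverse complement of CCAAT, and hits of both kinds overlapped in 94 of all promoters, including 1 of each of these 2 classes. None of the 3 G1 cyclin promoters, from Ccnd3 and Ccne1, held CHR or E2F-type letters. The contrast was less sharp in the other cell cycle lists used below. Of 67 promoters of other G2 and mitosis genes, 62.7% held CHR and 26.9% E2F-type letters. Of 59 promoters of other replication genes, 18.6% held CHR and 45.8% E2F-type letters. A match of letters is not a measured binding site.

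**Figure D1:**
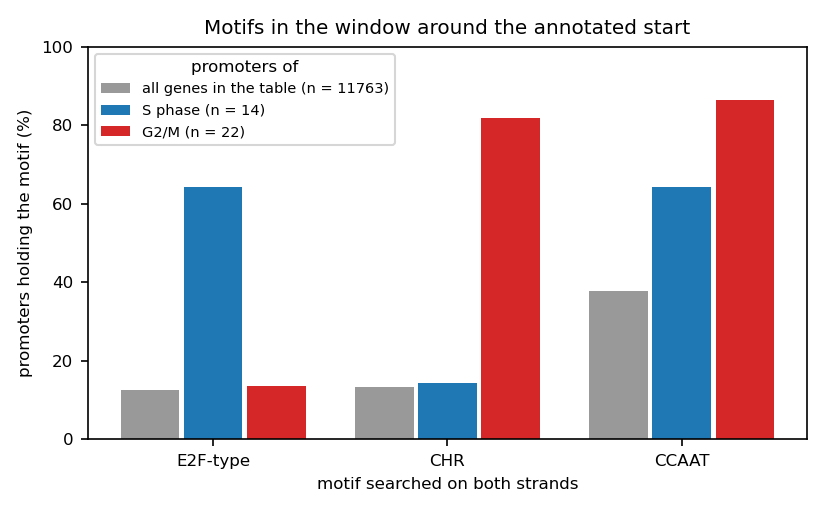
Share of promoters (y axis, percent) holding E2F-type, CHR and CCAAT letters (x axis) among all genes in the table (grey), S phase genes (blue) and G2/M genes (red). CHR letters were in 81.8% of G2/M and 14.3% of S phase promoters, and E2F-type letters in 13.6% and 64.3%.

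The 160 bases before the annotated start are shown for 3 G2/M genes and 2 S phase genes, so that the 2 kinds of promoter can be read beside the values below. They are given 5′ to 3′ on the gene's strand, with the searched letters in capitals. They lie at chr9:70421555-70421714 (minus strand) for Ccnb2, chr11:99024190-99024349 (minus strand) for Top2a, chr10:69352913-69353072 (minus strand) for Cdk1, chr1:128359706-128359865 (minus strand) for Mcm6 and chr7:102441535-102441694 (plus strand) for Rrm1.
Ccnb2: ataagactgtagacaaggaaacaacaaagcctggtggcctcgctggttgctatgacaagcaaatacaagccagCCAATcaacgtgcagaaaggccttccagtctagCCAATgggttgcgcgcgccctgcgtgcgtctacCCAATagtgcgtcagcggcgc
Top2a: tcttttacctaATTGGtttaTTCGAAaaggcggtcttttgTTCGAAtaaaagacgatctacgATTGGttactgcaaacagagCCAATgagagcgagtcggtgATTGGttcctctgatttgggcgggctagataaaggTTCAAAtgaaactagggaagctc
Cdk1: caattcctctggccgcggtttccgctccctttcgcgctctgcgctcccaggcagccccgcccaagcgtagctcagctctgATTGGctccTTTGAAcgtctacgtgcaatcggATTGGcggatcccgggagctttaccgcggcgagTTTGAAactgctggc
Mcm6: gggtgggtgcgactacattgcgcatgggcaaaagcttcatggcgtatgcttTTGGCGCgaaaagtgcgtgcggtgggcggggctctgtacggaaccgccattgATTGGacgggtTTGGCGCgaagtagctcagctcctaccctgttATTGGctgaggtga
Rrm1: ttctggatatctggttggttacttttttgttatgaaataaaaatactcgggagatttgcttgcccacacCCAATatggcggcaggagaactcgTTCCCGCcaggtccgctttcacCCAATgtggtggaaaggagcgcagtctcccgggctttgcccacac
Ccnb2 (cyclin B2) carries 3 CCAAT boxes on 1 strand, beginning at positions -87, -54 and -21 from the start, and its CHR match lies outside the printed stretch. Top2a carries 3 CHR matches and 4 CCAAT boxes in either direction. Cdk1 has CHR matches at -71 and -15, and its window also holds E2F-type letters outside the printed stretch. Mcm6, a helicase subunit, has TTGGCGC at -109 and -46, and Rrm1, the large subunit of the enzyme that makes deoxyribonucleotides, has TTCCCGC at -67.

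The first comparison asked how these genes differed between gtf2i/gtf2i and wt brains. Of the 45 genes, 44 had a fold change above 0 in gtf2i/gtf2i, against 5901 of 11708 genes (50.4%) in the whole table. The median log2 fold change was 0.24 over the S phase genes, 0.26 over the G2/M genes and 0.14 over the G1 cyclins, against 0.00 over all genes. Only 1 of the 45, Ccnd1, was called (edgeR, adjusted p under 0.05), against 0.94% of all genes. At an unadjusted p under 0.05, 14 were higher and 0 lower, namely 6 S phase genes, 6 G2/M genes and 2 G1 cyclins, against 14.4% of all genes (712 higher and 972 lower). DESeq2 called 2 of the 45, Ccnb2 and Ccnd1, against 2.75% of all genes. The 3 gtf2i/gtf2i libraries lay above all 3 wt libraries for 10 genes, where 7.82% of all genes did so, and below them for 0 genes, where 8.98% of all genes did so. The genes were thus mostly a little higher, by sizes that single genes mostly did not show beyond the spread of 3 libraries.

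**Figure D2:**
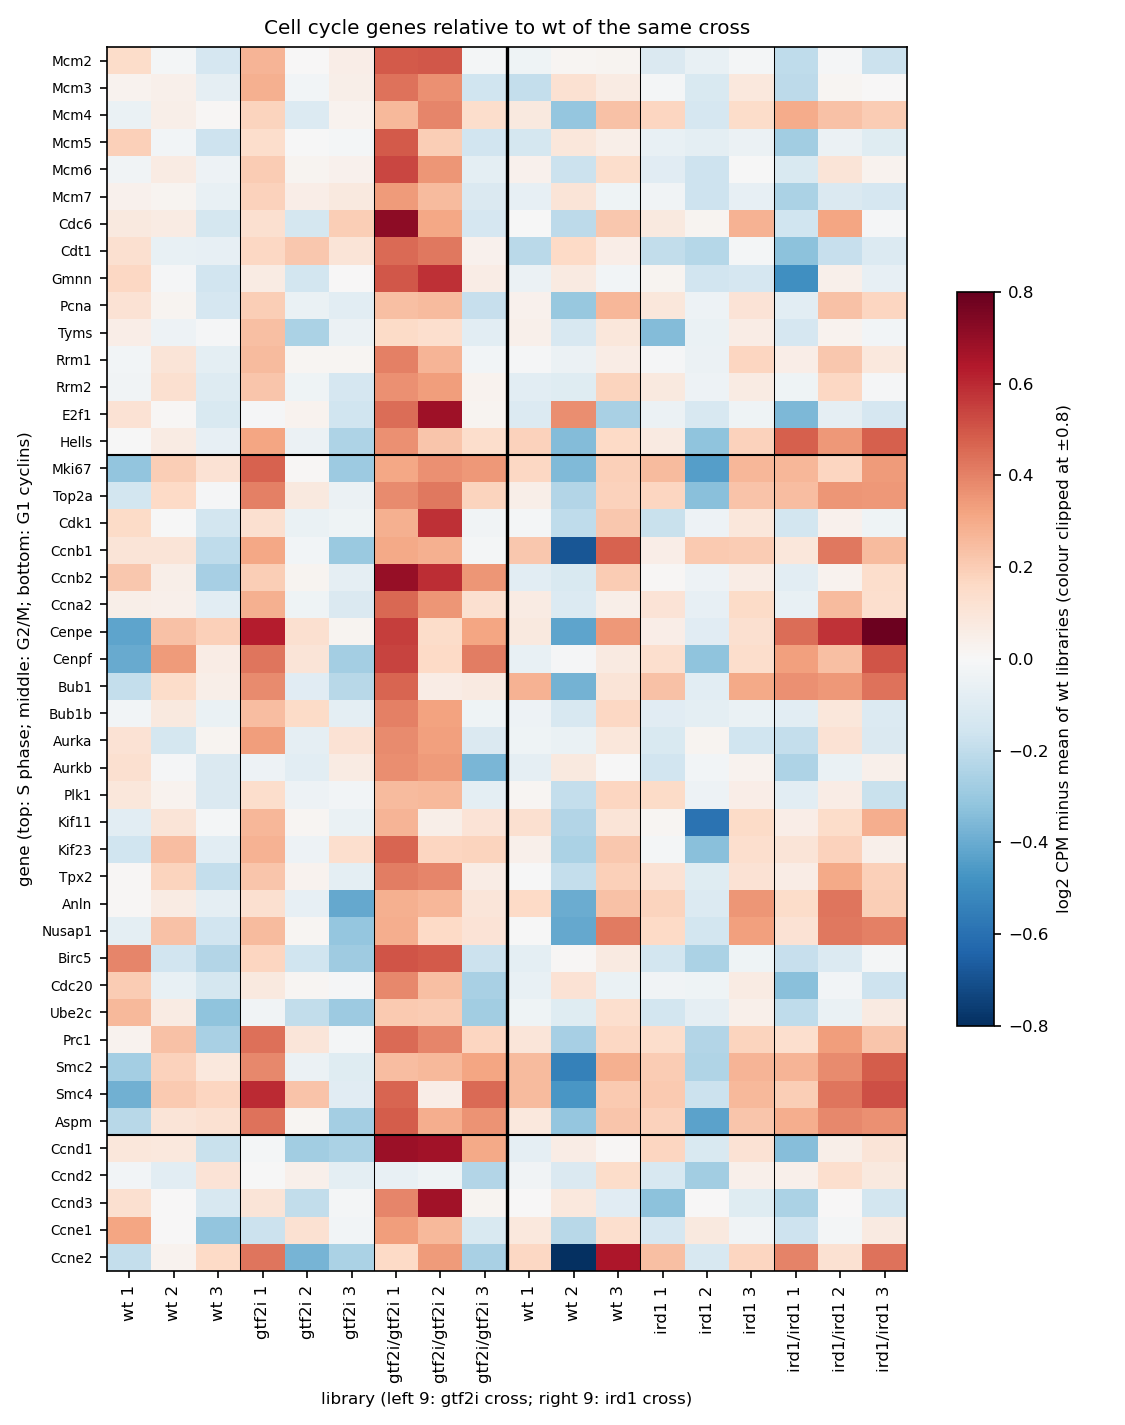
Each row is 1 of the 45 genes and each column 1 library, and the colour is log2 CPM minus the mean of the 3 wt libraries of the same cross (colour clipped at 0.8 either way). Columns for gtf2i/gtf2i replicates 1 and 2 are red through nearly all rows, with 42 and 35 genes above the wt range (29.9% and 31.3% of all genes), and gtf2i/gtf2i replicate 3 is mixed, with 14 above and 9 below (29.1% of all genes each way).

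Ccnd1 (ENSMUSG00000070348, chr7:144929931-144939831) encodes cyclin D1, which activates Cdk4 and Cdk6 in G1. Its levels were 243, 241 and 202 CPM in the wt libraries of the gtf2i cross, 226, 188 and 191 CPM in gtf2i and 366, 363 and 282 CPM in gtf2i/gtf2i, in the order of replicates 1 to 3. Every gtf2i/gtf2i library lay above every wt and gtf2i library. Ccnd1 rose in gtf2i/gtf2i against wt by a log2 change of 0.55 (SE 0.112), with an edgeR adjusted p of 0.0353. The call depended on the fit. It held with DESeq2 (adjusted p = 0.00107), with the title number of the samples as a block (0.000947), with that block after length correction (0.000194) and with all 18 libraries (0.0198). It was lost in 7 of 9 fits that each left out 1 library (without wt replicate 1, 2 or 3, gtf2i replicate 2 or 3, or gtf2i/gtf2i replicate 1 or 2), where the adjusted p lay between 0.0543 and 0.175, and with only the 2 groups fitted (0.0897), while the fold change stayed between 0.47 and 0.67.

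The other G1 cyclins did not pass the test. Ccnd3 (cyclin D3) was at 66.2, 60.8 and 55.5 CPM in wt and 79.4, 96.5 and 61.7 CPM in gtf2i/gtf2i, a log2 change of 0.37 (SE 0.142) with an edgeR adjusted p of 0.245. Replicates 1 and 2 lay above all wt libraries and replicate 3 within them. The log2 change of Ccnd3 ranged from 0.21 without gtf2i/gtf2i replicate 2 to 0.53 without replicate 3. Ccnd2, the most abundant of the 45, was the only gene with a fold change below 0, at 1268, 1216 and 1387 CPM in wt and 1235, 1257 and 1095 CPM in gtf2i/gtf2i (-0.12 (SE 0.0895) on the log2 scale, edgeR adjusted p = 0.623). The groups overlapped. Ccne1 and Ccne2, the cyclins that pair with Cdk2 at the start of S phase, had log2 fold changes of 0.14 and 0.06, well within the spread. Cyclins D1, D2 and D3 thus had different fold changes in the same libraries, from -0.12 to 0.55. Whether they differ among the cyclins was not tested.

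All 15 S phase genes had fold changes above 0 in gtf2i/gtf2i, from 0.06 for Tyms (thymidylate synthase) to 0.39 for E2f1, and 0 were called by edgeR, with 6 at an unadjusted p under 0.05 (14.4% of all genes) and 0 called by DESeq2 (2.75% of all genes). E2f1 encodes the transcription factor that activates replication genes. It was at 58.9, 54.6 and 49.9 CPM in wt and 74.2, 86.8 and 55.1 CPM in gtf2i/gtf2i, a log2 change of 0.39 (SE 0.139) with an edgeR adjusted p of 0.2. Replicates 1 and 2 were higher than every wt library and replicate 3 lay inside the wt range. The log2 change of E2f1 ranged from 0.24 without gtf2i/gtf2i replicate 2 to 0.56 without replicate 3. The MCM helicase subunit gene Mcm4 was at 77.7, 83.3 and 81.4 CPM in wt and 96.6, 106 and 89.1 CPM in gtf2i/gtf2i, with no overlap, and its log2 change was 0.26 (SE 0.0970) (edgeR adjusted p = 0.232). Mcm2, of the same complex, was at 189.6, 169 and 156 CPM in wt and 240.0, 241 and 169.5 CPM in gtf2i/gtf2i, a log2 change of 0.33 (SE 0.126) (edgeR adjusted p = 0.24). Here too replicate 3 fell among the wt libraries, and the log2 change of Mcm2 ranged from 0.25 without gtf2i/gtf2i replicate 2 to 0.49 without replicate 3.

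The 6 MCM genes had log2 fold changes of 0.33 (Mcm2), 0.23 (Mcm3), 0.26 (Mcm4), 0.19 (Mcm5), 0.28 (Mcm6) and 0.16 (Mcm7). Their loading factor Cdt1 had 0.30 and its inhibitor geminin, encoded by Gmnn, had 0.38, so the loader and its inhibitor were displaced in the same direction. Cdc6, the other loader, had 0.33 with a wide SE of 0.182. The nucleotide synthesis genes Rrm1 and Rrm2 had 0.22 and 0.24, and Pcna, the sliding clamp of DNA polymerase, had 0.10. Hells, a chromatin remodeller of dividing cells, was at 39.4, 41.2 and 37.7 CPM in wt and 50.7, 45.96 and 43.5 CPM in gtf2i/gtf2i, which do not overlap, with a log2 fold change of 0.24.

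Among the 25 G2/M genes, all had fold changes above 0, from 0.03 for Ube2c to 0.53 for Ccnb2, and 0 were called by edgeR, with 6 at an unadjusted p under 0.05 (14.4% of all genes) and 1 called by DESeq2 (2.75% of all genes). Ccnb2 (ENSMUSG00000032218, chr9:70407689-70421554), the B-type cyclin whose promoter is shown above, was at 47.9, 42.5 and 34.3 CPM in wt, 47.1, 41.8 and 39.3 CPM in gtf2i and 66.8, 61.9 and 52.5 CPM in gtf2i/gtf2i. All gtf2i/gtf2i libraries exceeded all wt and gtf2i libraries. The log2 change was 0.53 (SE 0.134) with an edgeR adjusted p of 0.0683, just outside the threshold. It passed with DESeq2 (adjusted p = 0.0183), with all 18 libraries in the fit (0.0269) with the length trend removed (0.0271) and with the title number of the samples as a block (0.0133). It did not pass with upper-quartile scaling (0.0697), with library totals (0.0707), with a minimum of 50 counts (0.0684) or with only the 2 groups fitted (0.138).

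Ccna2, the A-type cyclin of S phase and G2, was at 117, 116 and 107 CPM in wt and 155, 145 and 124 CPM in gtf2i/gtf2i (0.31 (SE 0.112) on the log2 scale, edgeR adjusted p = 0.2). Top2a was at 309, 382 and 339.6 CPM in wt and 445, 458 and 387 CPM in gtf2i/gtf2i (0.32 (SE 0.117), edgeR adjusted p = 0.215, and 0.0493 with the title number as a block). Neither gene overlapped between these groups, but gtf2i replicate 1 reached into the gtf2i/gtf2i range, with Top2a at 452, 360.5 and 331 CPM and Ccna2 at 138, 110.3 and 104 CPM in gtf2i. Aspm, a spindle pole protein needed for symmetric divisions of neural progenitors, was at 65.5, 82.2 and 83.2 CPM in wt and 107, 93.8 and 98.3 CPM in gtf2i/gtf2i, with a log2 fold change of 0.37 and no overlap. Mki67, the common marker of dividing cells, was also without overlap, at 122, 175 and 164 CPM in wt and 189, 196 and 193 CPM in gtf2i/gtf2i (0.32 on the log2 scale), while the gtf2i libraries were at 211, 153 and 124 CPM, the first of them above all 3 gtf2i/gtf2i libraries. In Aspm, Hells and Mcm4 too, gtf2i replicate 1 lay above the lowest gtf2i/gtf2i library. The Polo kinase gene Plk1 and the Aurora kinase genes Aurka and Aurkb had smaller log2 fold changes of 0.14, 0.20 and 0.14. Cdk1 itself was at 0.28 with overlapping groups.

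**Figure D3:**
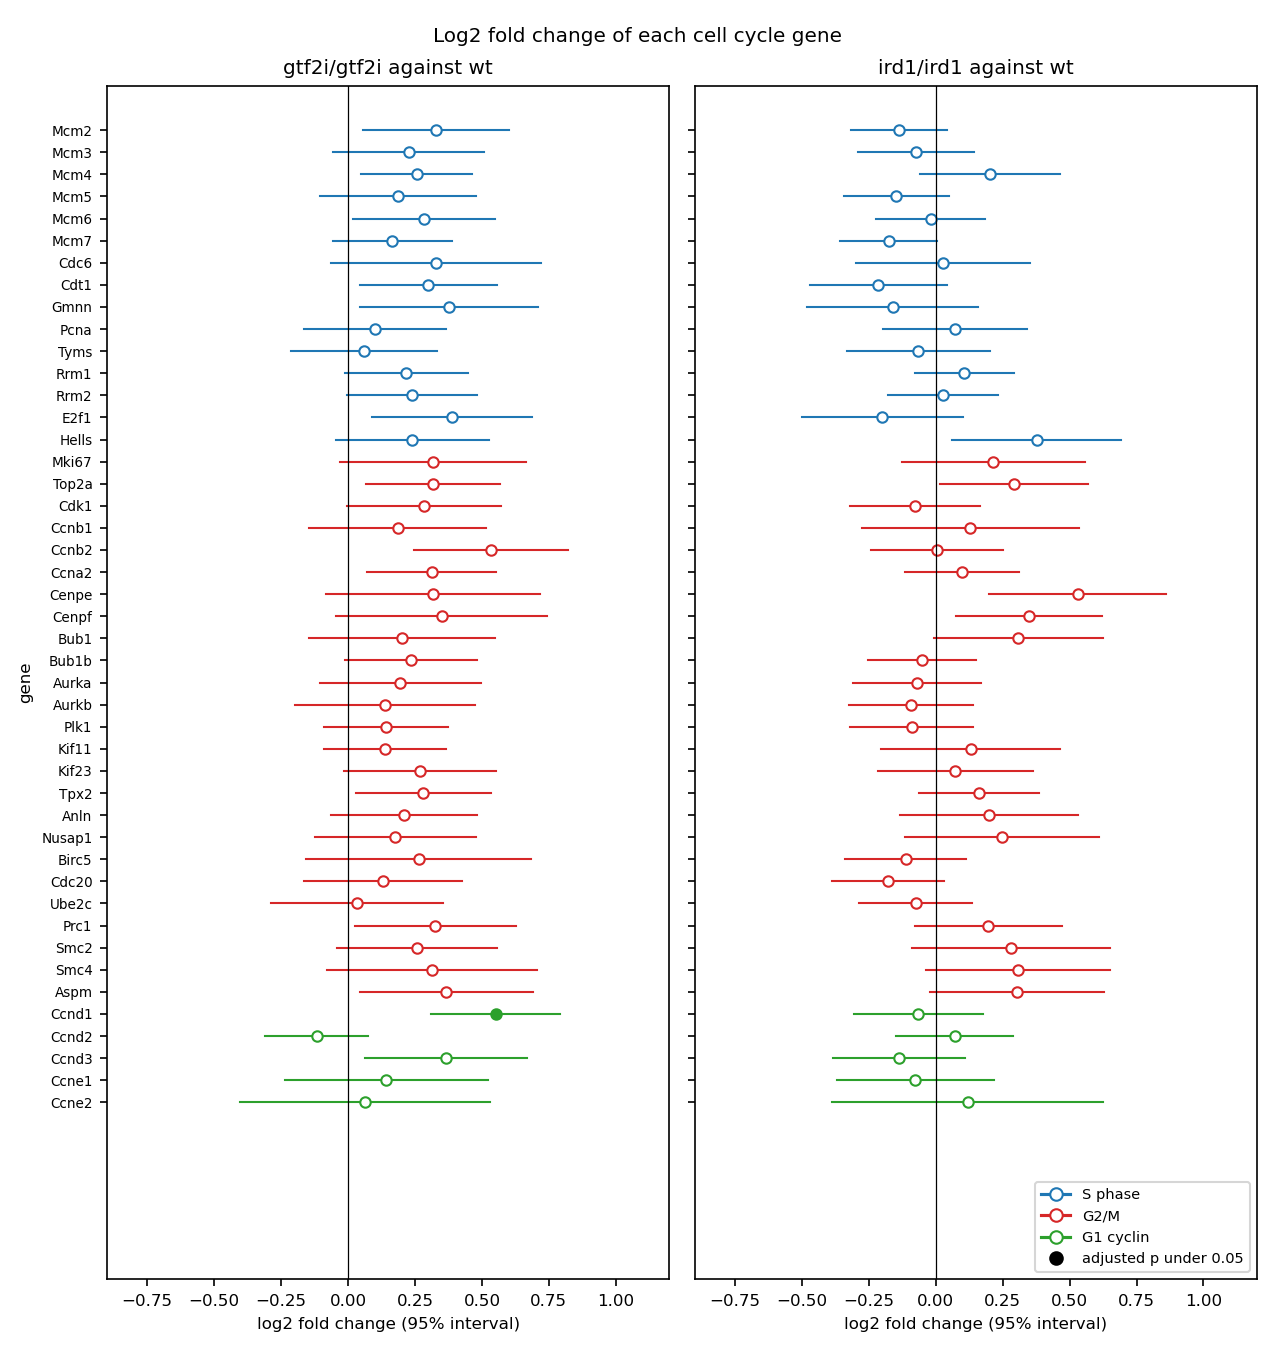
Log2 fold change of each gene (x axis, with 95% intervals; filled where the adjusted p is under 0.05) in gtf2i/gtf2i against wt (left) and in ird1/ird1 against wt (right), coloured by class. On the left 44 of 45 points lie above 0 and only Ccnd1 is filled; on the right 25 lie above 0 and none is filled.

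The higher levels came mainly from 2 of the 3 gtf2i/gtf2i libraries. The mean log2 level of the S phase genes differed from the wt mean by 0.41, 0.35 and -0.03 in gtf2i/gtf2i replicates 1, 2 and 3. For the G2/M genes these differences were 0.39, 0.29 and 0.09, and for the G1 cyclins 0.30, 0.38 and -0.06. All 15 S phase genes lay above the wt range in replicates 1 and 2, but only 2 did in replicate 3, where 5 lay below it. Of the G2/M genes, 24, 17 and 11 lay above the wt range. Of all genes, 29.9%, 31.3% and 29.1% lay above it in replicates 1, 2 and 3, and 29.1% below it in replicate 3, so the 14 of 45 above it in replicate 3 are near the share of the whole table. Without replicate 3, 19 of the 45 genes were called, all higher (10 S phase genes, 7 G2/M genes and 2 G1 cyclins), against 1159 of all genes (9.9%), whereas edgeR called 0 without replicate 1 (6 at an unadjusted p under 0.05, against 1287 of all genes) and 0 without replicate 2 (7, against 1167). In those fits 66 and 36 of all genes were called. G2/M genes in replicate 3 thus stayed nearer to the other libraries of its group than S phase genes did, a difference that was not tested.

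Neuron markers stood below wt in the same 2 libraries in which the cell cycle genes stood above it. Their mean log2 level differed from wt by -0.45, -0.38 and 0.05 in gtf2i/gtf2i replicates 1, 2 and 3. Of 20 neuron markers 17 had fold changes below 0, with a median of -0.23 and 0 called by edgeR (9 at an unadjusted p under 0.05, all lower, against 14.4% of all genes), and their summed level ranged from 8272 to 9055 CPM in wt and from 6587 to 8728 CPM in gtf2i/gtf2i. Radial glia markers summed to between 3312 and 3755 CPM in wt and between 3935 and 4466 CPM in gtf2i/gtf2i, with 12 of 17 above 0, a median of 0.08, and 6 higher and 1 lower at an unadjusted p under 0.05. The intermediate progenitor list summed to between 1088 and 1332 CPM in wt and between 1227 and 1467 CPM in gtf2i/gtf2i, and 9 of its 11 genes were above 0, with 5 higher and 1 lower at an unadjusted p under 0.05, but Eomes, a transcription factor that defines these cells, fell by 0.66 (edgeR adjusted p = 0.034). Red blood cell markers summed to between 4091 and 5314 CPM in wt and between 5790 and 9184 CPM in gtf2i/gtf2i, with 8 of 8 measured genes above 0, of which Hbb-y and Slc4a1 were called (edgeR adjusted p = 0.0392 and 0.0379). Mesenchyme markers (9 of 12 above 0, median 0.27), endothelium markers (5 of 11, median -0.01) and microglia markers (4 of 4 measured, median 0.29) had 0 called by edgeR. At an unadjusted p under 0.05 they had 4, 1 and 1, against 14.4% of all genes. Of 4 measured choroid plexus markers 2 were above 0, and Ttr fell by 1.63 (edgeR adjusted p = 0.000532). The share of all counts that fell on genes with listed transcripts under 1 kb was 6.48%, 7.60% and 4.44% in gtf2i/gtf2i replicates 1, 2 and 3, and 5.67%, 6.07% and 4.34% in wt. The part of cell composition and RNA composition in the result was not tested.

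**Figure D4:**
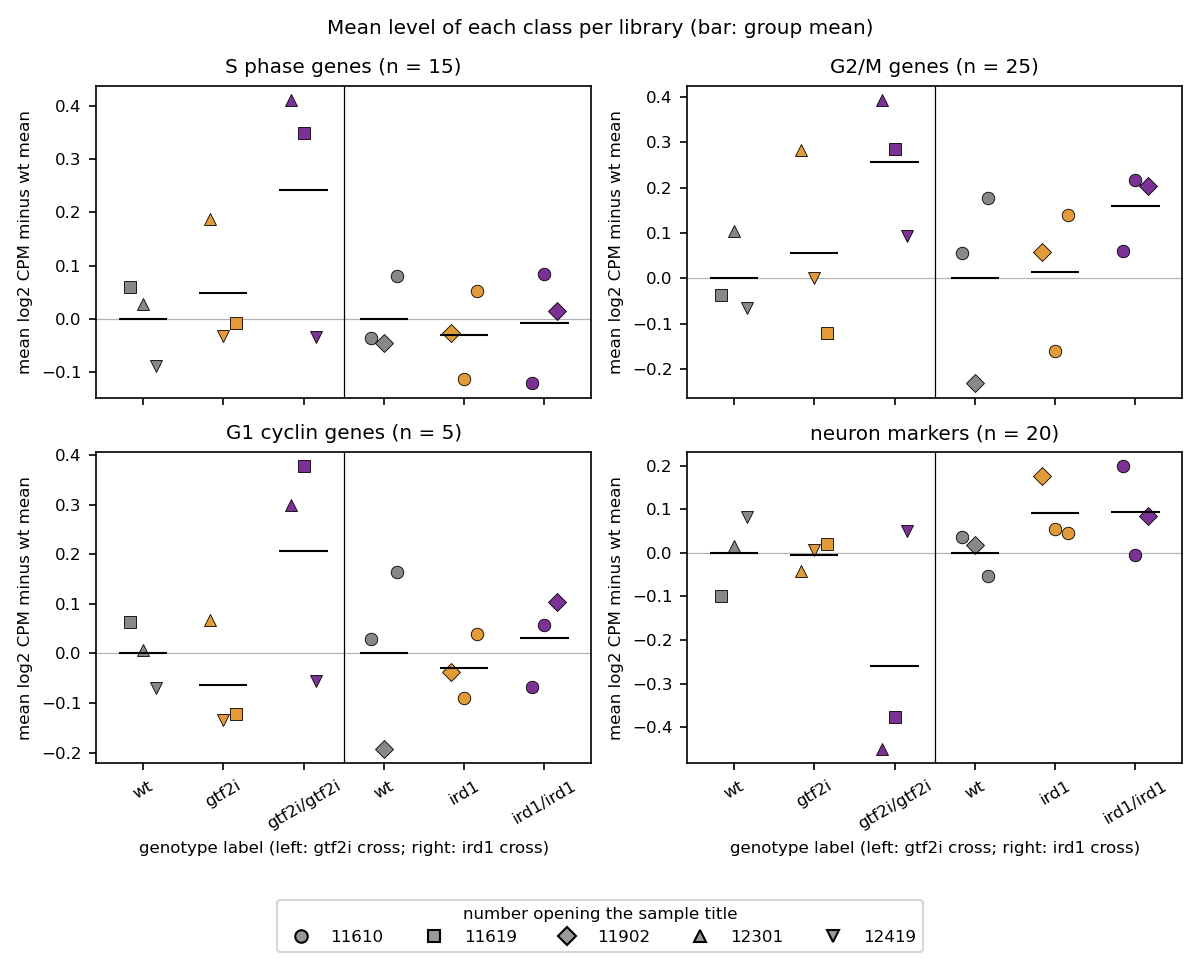
Mean log2 CPM per library minus the mean of the wt libraries of the same cross (y axis) for the S phase, G2/M and G1 cyclin genes and for 20 neuron markers, by genotype label (x axis); symbols mark the number that opens the sample title and bars are group means. In gtf2i/gtf2i, replicates 1 and 2 stand at 0.41 and 0.35 for S phase genes and at -0.45 and -0.38 for neuron markers, while replicate 3 stands at -0.03 and 0.05.

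Sample titles open with a number, and in the gtf2i cross each of 3 numbers is shared by 1 library of each genotype. Within the pair numbered 12301 (gtf2i/gtf2i replicate 1 and wt replicate 2) the S phase genes were higher by 0.38 on average on the log2 scale and the G2/M genes by 0.29, with 15 of 15 and 25 of 25 genes higher. Within 11619 (gtf2i/gtf2i replicate 2 and wt replicate 1) the mean differences were 0.29 and 0.32, with 15 of 15 and 24 of 25 higher. Within 12419 (replicate 3 of each) they were 0.05 and 0.16, with 10 of 15 and 22 of 25 higher. In all 3 pairs 33 of the 45 genes were higher, namely 10 S phase genes, 21 G2/M genes and 2 G1 cyclins, against 19.6% of all genes. With the number as a block, 5 genes were called (Ccnd1, Ccnb2, Top2a, Cenpf and Aspm, all higher) against 624 of all genes (5.33%), with an adjusted p of 0.000947 for Ccnd1, 0.0133 for Ccnb2 and 0.0493 for Top2a. With the block and the correction for length, 12 were called, against 7.22% of all genes, and these included Mcm2 (0.0248), Ccna2 (0.0273) and Ccnd3 (0.0332), which the block alone did not call. Replicate 3, measured against the wt library of its own number, was thus displaced in the same direction as the other 2 pairs for most G2/M genes, although by less.

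Other genes of the cycle were read from 3 lists of general knowledge. These lists too were drawn up with earlier results of these data known, so they are not independent of the data. Of 75 other G2 and mitosis genes, 70 were higher in gtf2i/gtf2i than in wt, the median being 0.23 on the log2 scale. Of these, 1 was called by edgeR (0.94% of all genes) and 1 by DESeq2 (2.75% of all genes), and 16 had an unadjusted p under 0.05 (14.4% of all genes), all higher. The called gene was Cdc25b, the phosphatase that activates Cdk1 at the entry into mitosis, at 84.2, 90.7 and 77.8 CPM in wt and 129.7, 122 and 101 CPM in gtf2i/gtf2i. The groups did not overlap, and it rose by 0.48 (SE 0.102) on the log2 scale (edgeR adjusted p = 0.0422). Of 61 other replication genes, 53 were higher, with a median of 0.17, and 0 were called by edgeR (12 at an unadjusted p under 0.05, against 14.4% of all genes) or by DESeq2. Of 25 other genes of G1 and of the step from G1 to S phase, 18 were higher, with a median of 0.11, and 0 were called by edgeR (4 at an unadjusted p under 0.05) and 1 by DESeq2. All 12 and all 4 genes at an unadjusted p under 0.05 were higher. Without gtf2i/gtf2i replicate 3, edgeR called 22 of the 75, 11 of the 61 and 2 of the 25, all higher, against 9.9% of all genes.

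Brains labelled gtf2i were closer to wt in the size of their fold changes, with 32 of the 45 genes above 0. By edgeR 0 of the 45 genes were called, against 0.00854% of all genes, 0 had an unadjusted p under 0.05, against 1.6% of all genes, and 0 were called by DESeq2 (0.0512% of all genes). The median log2 fold changes were 0.03 for S phase genes, 0.05 for G2/M genes and -0.04 for G1 cyclins, and without gtf2i replicate 1 the first and second turned to -0.015 and -0.033. All 5 G1 cyclins had fold changes below 0, between -0.18 for Ccnd1 and -0.02. The 3 gtf2i libraries differed among themselves: 32 of the 45 genes lay above the wt range in replicate 1, 4 in replicate 2 and 3 in replicate 3, where 14 lay below it. Of all genes, 23.9%, 19.7% and 22.3% lay above it in these libraries, and 20.2% below it in replicate 3.

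Between gtf2i/gtf2i and gtf2i, which uses the same gtf2i/gtf2i libraries as the comparison above, 44 of the 45 genes again had fold changes above 0, with medians of 0.20, 0.18 and 0.18 for the S phase, G2/M and G1 cyclin genes. Only Ccnd1 was called, against 3.12% of all genes, and 8 genes had an unadjusted p under 0.05, against 16.5% of all genes. Ccnd1 rose by 0.73 (SE 0.113) (edgeR adjusted p = 0.00427), and the call held in each of the 9 fits that left out 1 library. DESeq2 called 2, Ccnb2 and Ccnd1 (4.44%), against 4.3% of all genes. Without gtf2i/gtf2i replicate 3, 12 genes were called, against 11.8% of all genes. Among the other cell cycle genes, Cdc25b rose by 0.55 (SE 0.102) (edgeR adjusted p = 0.0126). Cdkn1c, which encodes the inhibitor p57 that helps progenitors leave the cycle, rose by 0.43 (SE 0.0751) (edgeR adjusted p = 0.00909), from 228, 209.6 and 224 CPM in gtf2i to 285, 316 and 295 CPM in gtf2i/gtf2i, with 247, 255 and 238 CPM in wt. An activator of the cycle and an inhibitor of it were thus both higher in the same 3 libraries.

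**Figure D5:**
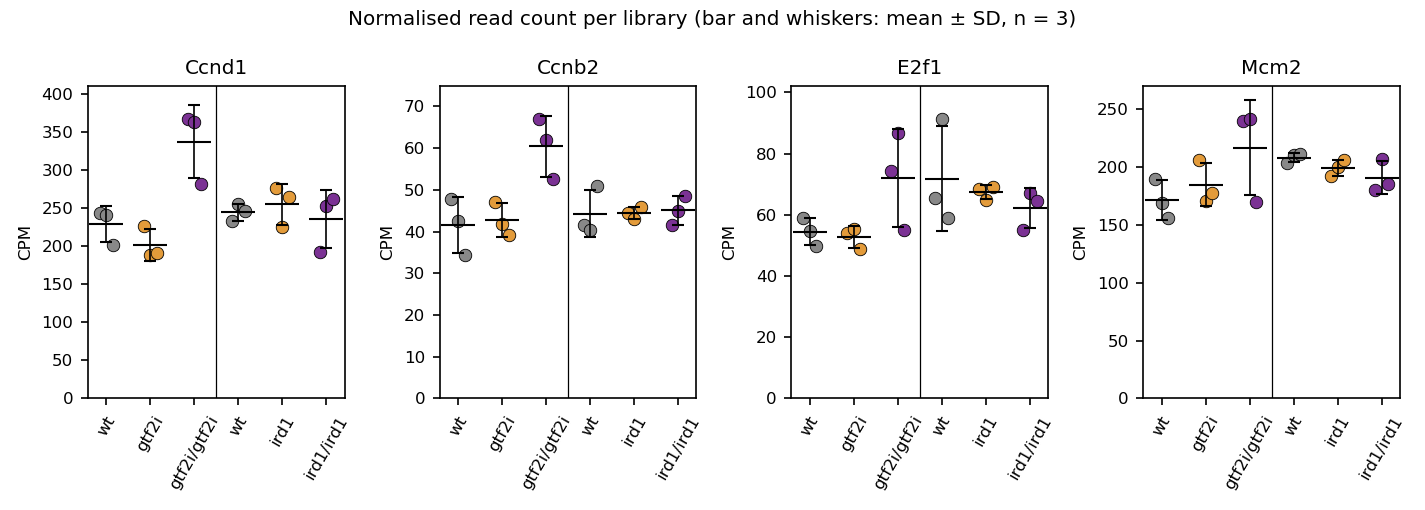
CPM per library (y axis, from 0) of Ccnd1, Ccnb2, E2f1 and Mcm2 in the 6 groups (x axis), with mean and SD over 3 libraries. For Ccnd1 the 3 gtf2i/gtf2i libraries, at 282 to 366 CPM, lie above the other 15, and for E2f1 and Mcm2 only 2 of the 3 stand above wt of the gtf2i cross.

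The same question was asked of ird1/ird1 brains. Against the wt libraries of the ird1 cross, 0 of the 45 genes were called by edgeR or DESeq2, against 0.00854% of all genes by each tool, and 4 had an unadjusted p under 0.05, all higher, against 16.1% of all genes. The median log2 fold change was -0.06 for S phase genes, 0.13 for G2/M genes and -0.06 for G1 cyclins. Of the S phase genes 6 of 15 were above 0, of the G2/M genes 17 of 25 and of the G1 cyclins 2 of 5. The 3 ird1/ird1 libraries lay above all wt libraries for 6 genes, against 15.1% of all genes, and below them for 1, Mcm7, against 11.8%. Of all genes, 902 were higher and 984 lower at an unadjusted p under 0.05, and 49.5% had fold changes above 0, against 55.6% of the 45.

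Cenpe, the kinetochore motor, was at 26.95, 19.1 and 32.4 CPM in wt and 34.9, 38.1 and 44.02 CPM in ird1/ird1, without overlap, a log2 change of 0.53 (SE 0.156) with an edgeR adjusted p of 0.296. Cenpf, a protein of the outer kinetochore, was at 46.98, 48.7 and 51.6 CPM in wt and 61.6, 57.98 and 69.5 CPM in ird1/ird1 (0.35 on the log2 scale). Hells was at 35.2, 24.4 and 34.6 CPM in wt and 43.2, 39.4 and 43.1 CPM in ird1/ird1 (0.38), and Top2a was at 298, 246 and 328 CPM and 343, 369 and 368 CPM (0.29). These are the 4 genes at an unadjusted p under 0.05, and in each the wt replicate 2 was the lowest library except in Cenpf, where it was wt replicate 1. With 1 library left out, the log2 change of Cenpe ranged from 0.39 to 0.71 and of Cenpf from 0.27 to 0.43. That of Hells ranged from 0.26 to 0.48 and of Top2a from 0.19 to 0.40. All but Cenpf were lowest without wt replicate 2. Mcm7 was at 176, 198 and 180.4 CPM in wt and 155, 171 and 168 CPM in ird1/ird1 (-0.18 (SE 0.0849), edgeR adjusted p = 0.312) and the replication licensing gene Cdt1 was at 50.4, 65.5 and 60.8 CPM and 46.7, 51.5 and 54.2 CPM (-0.21 (SE 0.120), edgeR adjusted p = 0.347). The log2 change of Cdt1 ranged from -0.31 without wt replicate 1 to -0.135 without wt replicate 2. The D-type cyclins had log2 fold changes of -0.06 (Ccnd1), 0.07 (Ccnd2) and -0.14 (Ccnd3), the first of which turned to 0.07 without ird1/ird1 replicate 1 and the second to -0.04 with the length trend removed. With 1 library left out, Ccnd2 ranged from 0.019 to 0.16 and Ccnd3 from -0.19 to -0.067.

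The fold changes in ird1/ird1 followed transcript length. Across the 45 genes, which are not independent, fold change and log2 length correlated at a Pearson r of 0.631, and across 11700 genes at 0.436; in gtf2i/gtf2i against wt the values were 0.126 and -0.0639. The 4 genes named as higher have listed transcripts of 5221 to 11130 bases, against class medians of 3431 for S phase genes, 3645 for G2/M genes and 3740 for G1 cyclins. Removing the smooth trend with length left the G2/M median at 0.12 and the S phase median at -0.05, and 3 of the 45 genes at an unadjusted p under 0.05. It took the log2 change of Cenpf from 0.35 to 0.14, of Cenpe from 0.53 to 0.39, of Hells from 0.38 to 0.28 and of Top2a from 0.29 to 0.22. The G2/M median also depended on single wt libraries. Replicate 2, the shallowest library, had 8.10% of its counts on genes under 1 kb against 5.71% and 6.61% in the other wt libraries, and its mean G2/M level lay 0.23 below the wt mean. Without it the G2/M median was 0.05, and without wt replicate 3 it was 0.27. Within the title number 11902 (1 library each of ird1/ird1 and wt, the latter being wt replicate 2) the median G2/M difference was 0.48, and within 11610 (2 libraries each) it was 0.04.

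For brains labelled ird1, 0 of the 45 genes were called against wt by edgeR or DESeq2, against 0% of all genes by edgeR and 0.00854% by DESeq2, and 0 had an unadjusted p under 0.05, against 3.02% of all genes. The medians were -0.06, 0.01 and -0.08 for S phase, G2/M and G1 cyclin genes. The G2/M median was -0.10 without wt replicate 2 and 0.0995 without wt replicate 3, and the G1 cyclin median was 0.0083 without wt replicate 3. Between ird1/ird1 and ird1, which shares the ird1/ird1 libraries with the comparison above, 0 were called by edgeR or DESeq2, against 0% of all genes by edgeR and 0.00854% by DESeq2, and 3 had an unadjusted p under 0.05 (Cenpe, Cenpf and Hells), against 4.66% of all genes. Their log2 fold changes were 0.56, 0.35 and 0.43. Here too fold change and log2 length correlated across the 45 genes, at an r of 0.668.

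Whether the 2 homozygous genotypes differ in their effect was tested as a difference of differences over all 18 libraries. By edgeR 0 of the 45 genes were called, against 0.171% of all genes, 0 were called by DESeq2 (0.717% of all genes), and 8 had an unadjusted p under 0.05, all with a larger fold change in gtf2i/gtf2i, against 13% of all genes. The median difference in log2 fold change was 0.30 for S phase genes, 0.10 for G2/M genes and 0.21 for G1 cyclins, and 14 of 15, 20 of 25 and 3 of 5 genes were above 0, against 5670 of 11708 genes in the table. The G2/M median ranged from 0.014 without wt replicate 3 of the ird1 cross to 0.21 without gtf2i/gtf2i replicate 3. The largest was that of Ccnd1, 0.61 (SE 0.173) with an edgeR adjusted p of 0.179. Of the other 7 genes at an unadjusted p under 0.05, E2f1 had 0.58 (SE 0.213) and an edgeR adjusted p of 0.271, Gmnn with 0.53, Ccnb2 with 0.52, Cdt1 with 0.51, Ccnd3 with 0.50, Mcm2 with 0.46 and Mcm7 with 0.34. Without gtf2i/gtf2i replicate 3, 8 genes were called (Mcm2, Mcm6, Mcm7, Cdt1, E2f1, Ccnb2, Ccnd1 and Ccnd3), against 6.18% of all genes. Across the 45 genes this difference correlated with log2 length at an r of -0.473.

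The wt libraries of the crosses carry no mutant allele by label, and their comparison shows how far these genes differ between crosses alone. By edgeR 0 of the 45 were called, against 0% of all genes, and 14 had an unadjusted p under 0.05, against 32.7% of all genes. Of the 14, 9 were higher in the gtf2i cross and all of these were G2/M genes (Mki67, Cenpe, Cenpf, Bub1, Kif11, Anln, Nusap1, Smc2 and Smc4), and 5 were lower and all were S phase genes (Mcm2, Mcm5, Mcm7, Cdt1 and E2f1). Cenpf was at 53.2, 88.8 and 73.3 CPM in wt of the gtf2i cross and 46.98, 48.7 and 51.6 CPM in wt of the ird1 cross (0.55 on the log2 scale, edgeR adjusted p = 0.0714). Cdt1 was at 49.2, 43.3 and 43.01 CPM and 50.4, 65.5 and 60.8 CPM (-0.37, edgeR adjusted p = 0.0714). With DESeq2, 6 of the 45 were called (Cdt1, Cenpe, Cenpf, Bub1, Nusap1 and Smc2), which is 13.3% of them and 13.3% of all genes. Leaving out wt replicate 1 of the gtf2i cross, edgeR called 6 of the 45 and 17.7% of all genes, leaving out gtf2i/gtf2i replicate 3 it called 3 (Mcm2, Mcm7 and Cdt1) and 11.5%, and leaving out wt replicate 1 of the ird1 cross 1 (Cdt1) and 8.81%. The 9 higher genes had listed transcripts with a median of 4819 bases and the 5 lower ones of 2962, and fold change and log2 length correlated at an r of 0.600 over the 45 genes. Levels of the classes are therefore compared within a cross and not across crosses.

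Within a class the genes varied together from library to library. Over the deviations of the 18 libraries from their group means, the median pairwise Pearson r was 0.642 among the S phase genes (105 pairs), 0.618 among the G2/M genes (300 pairs) and 0.273 among the G1 cyclins (10 pairs), and 0.538 between S phase and G2/M genes. The G1 cyclins had a median r of 0.504 with the S phase genes and 0.46 with the G2/M genes, above the value among themselves. Neuron markers reached 0.448 among themselves and the other replication genes 0.315. The pairs share libraries, depth and scaling, so these values are descriptions. Single libraries show it too. The gtf2i replicate 1 had 12 of 15 S phase and 19 of 25 G2/M genes above the wt range (23.9% of all genes), unlike the other libraries of its group, and wt replicate 2 of the ird1 cross had the lowest level of its group in most G2/M genes.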

How the data were processed

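RNA was rRNA-depleted total RNA made into libraries with a NEBNext Ultra II kit, per the labels' protocols. The authors deposited a table of whole-number read counts per gene for 18 libraries, and the submitters' processing notes name Trimmomatic, STAR, HTSeq and the build mm10, with no versions. The strand setting of the counting is not given in the sources used here, so whether reads of overlapping and antisense genes were told apart is not known. The lowest level of any gene in any library was between 2.9 and 3.09 CPM, so silent genes were not analysed here. The 32 samples of chromatin immunoprecipitation and input were not used.

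Counts were tested with edgeR 4.0.16 in R 4.3.3 (TMM scaling, quasi-likelihood test, Benjamini-Hochberg adjustment over all 11708 genes). filterByExpr removed 0 genes. Contrasts within a cross used its 9 libraries (6 residual degrees of freedom), and contrasts across crosses used all 18 (12 residual degrees of freedom). Total counts per library were 3239117 to 7371483, and edgeR's estimate of the variation between replicates was 10.4% (gtf2i cross) and 10% (ird1 cross). Levels on the log2 scale used a prior count of 2. The code was tested on simulated data. Libraries of a group differed by a chi-square of 2.9 to 29.5 per degree of freedom, so none was counted as a duplicate.

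The members and all lists were chosen with earlier results of these data known. The genes named are the targeted genes, every called member, the 3 members of each class with the smallest unadjusted p in gtf2i/gtf2i or ird1/ird1 against wt, and called genes of the other cell cycle lists. Genes named beyond this rule (such as Aspm, Mki67, Plk1, Cdc6 and the other MCM genes) were chosen for their known roles after their values were seen.

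Title numbers were checked for pairing by correlating deviations from group means. Same-numbered gtf2i/gtf2i and wt libraries correlated at 0.103, 0.377 and 0.52. As an alternative, the number was used as a block in every contrast except that between the wt groups. Alternatives were DESeq2 1.42.0, upper-quartile factors, library totals, no filter, a minimum of 50 counts, other sets of libraries in the fit, the block, a length trend removed by lowess (span 0.3, with 8 genes lacking a length) and each library left out. Promoter sequences came from RefSeq on GRCm38.p6.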

Additional observations from a re-analysis of the deposited data

Results flagged for a closer look

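For 3 of the 45 genes, all 3 homozygous libraries lay on 1 side of the wt mean in the gtf2i cross and all 3 on the other side in the ird1 cross. That is 6.67% of them, against 8.58% of all genes (1005 of 11708). Cdt1, the licensing factor, lay 0.03 to 0.45 above wt on the log2 scale in gtf2i/gtf2i and between -0.33 and -0.11 in ird1/ird1, and its fold changes differed by 0.51 (edgeR adjusted p = 0.257). E2f1 lay 0.02 to 0.67 above wt in gtf2i/gtf2i and between -0.36 and -0.07 in ird1/ird1, a difference of 0.58 (edgeR adjusted p = 0.271). Ccnd2 lay between -0.24 and -0.04 in gtf2i/gtf2i and 0.04 to 0.14 above wt in ird1/ird1, a difference of -0.19 (edgeR adjusted p = 0.527). The test of the difference itself passed the threshold for none of the 3. Cdt1 and E2f1 were also lower in wt of the gtf2i cross than in wt of the ird1 cross at an unadjusted p under 0.05.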

How the results depend on the processing

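A value was taken as kept where its direction and side of the threshold held, where a count stayed within 1.5 times, or where a median moved by less than the spread of class means between replicates (0.13 for S phase, 0.158 for G2/M and 0.139 for G1 cyclin genes, SD on the log2 scale). This held for 466 of 494 values under other settings and 492 of 531 with 1 library left out, but it lets small medians change by several fold or in sign. The number of the 45 genes called in gtf2i/gtf2i against wt was 1 as reported (0.94% of all genes), 0 with only the groups compared (0.265%; 16 at an unadjusted p under 0.05), 2 with DESeq2 (2.75%), 2 with all 18 libraries (2.24%), 2 with the length trend removed (2.5%), 5 with the title number as replicate block (5.33%), 12 with the block after length correction (7.22%), and 0 to 19 with 1 library left out. In gtf2i/gtf2i against gtf2i it was 2 with DESeq2 (4.3%), 2 in a fit of those groups alone (2.93%), 2 with all 18 libraries (4.05%), 2 after length correction (4.38%), 4 with the block (7.62%), 6 with the block after length correction (9.37%), and 1 to 12 with 1 library left out. For the difference between the homozygous effects it was 1 with the block (0.709%), 1 with the block after length correction (0.658%), and 0 to 8 with 1 library left out. Between the wt groups it was 6 with DESeq2 (13.3%) and 0 to 6 with 1 library left out, and no block could be fitted there because title numbers are not shared between crosses. The highest counts in the first 3 comparisons, 19, 12 and 8, were those without gtf2i/gtf2i replicate 3 (9.9%, 11.8% and 6.18% of all genes). The cause was not tested.

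With 1 library left out, medians in gtf2i/gtf2i against wt ranged from 0.14 to 0.35 for S phase genes, 0.17 to 0.34 for G2/M genes and 0.047 to 0.32 for G1 cyclins. In gtf2i/gtf2i against gtf2i they ranged from 0.057 to 0.30, 0.094 to 0.32 and 0.082 to 0.39, and for the difference between effects from 0.16 to 0.47, 0.014 to 0.21 and 0.069 to 0.39. Medians near 0 changed sign when 1 library was left out. In gtf2i against wt they ranged from -0.015 to 0.0999 for S phase and -0.033 to 0.14 for G2/M genes, in ird1 against wt from -0.10 to 0.0995 for G2/M genes and -0.13 to 0.0083 for G1 cyclins, in ird1/ird1 against wt from -0.094 to 0.0047 for S phase genes and -0.13 to 0.072 for G1 cyclins, and in ird1/ird1 against ird1 from -0.072 to 0.038 for S phase genes and -0.06 to 0.077 for G1 cyclins. In ird1/ird1 against wt, Ccnd2 was at -0.0424 with the length trend removed and at -0.0422 with the block as well, and Ccnd1 ranged from -0.147 to 0.0718 with 1 library left out, turning above 0 without ird1/ird1 replicate 1. Same-numbered gtf2i/gtf2i and gtf2i libraries correlated at 0.0576 to 0.114, gtf2i and wt libraries at 0.0485 to 0.354 and libraries of the ird1 cross at -0.3 to 0.286. In the gtf2i cross these values overlap those of gtf2i/gtf2i with wt, so they do not settle whether the numbers are pairs. The main fits had no block, and the block changed no call of the 45 genes beyond those given. Groups of 3 libraries limit every test here.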
